A study of Persea americana and Macadamia integrifolia and Mangifera indica with 6 samples.

Results

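miR159 and miR319 are related plant microRNA families, and their members were taken from the deposited miRNA values by name, as every Arabidopsis or rice entry called miR159 or miR319. These were 9 of the 123 entries, 3 from Arabidopsis and 6 from rice, and they belong to 2 of the 20 families present. Rice miR159a.1 and rice miR159b had identical values in all 6 libraries and were treated as 1 sequence, so that 8 distinct sequences of 53 were followed, 6 of miR159 and 2 of miR319. All 8 are described below, including those at or near 0 reads.

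In plants, miR159 directs the cleavage of GAMYB-like transcripts, which encode R2R3 MYB transcription factors such as MYB33 and MYB65 of Arabidopsis, and it is commonly among the most abundant miRNAs of leaves. miR319 resembles miR159 in sequence but acts mainly on transcripts of class II TCP factors, which restrain cell proliferation at leaf margins, and its overexpression in Arabidopsis gives crinkled leaves. In Arabidopsis MYB33 also promotes transcription of miR156 genes, which is why the study placed miR159 beside the miR156 age pathway. By qRT-PCR on replicate pools of leaves, the study found miR159 uncorrelated with tree age or miR156 level in these trees. It reported the same trend from its small RNA sequencing.

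The sequences that the study used as qRT-PCR primers for miR159 and for miR156 are shown because the levels of these miRNAs are set against each other below. They are written as DNA, 5′ to 3′, with the seed (bases 2 to 8) in capitals, and the study's methods describe such primers as the mature miRNA sequence.
miR159: tTTGGATTgaagggagctcta
miR156: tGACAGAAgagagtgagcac
The miR159 sequence has 21 bases and the miR156 sequence 20. The miR159 and miR156 seeds differ. The bases that set the other entries of the miR159 family apart from this sequence were not analysed here.

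Small RNA was sequenced from the youngest fully expanded leaves of 3 unrelated fruit trees, avocado (Persea americana, cultivar Hass), macadamia (cultivar HAES741) and mango (cultivar Kensington Pride), with 1 juvenile and 1 mature library for each. Juvenile leaves came from seedlings aged 1 month, raised in a nursery (avocado) or glasshouse (macadamia and mango). Mature leaves came from flowering field trees aged 10 years in avocado and macadamia and 5 years in mango, with avocado grafted on Velvick rootstock and mango grown as true seedlings, so tree age and growing site cannot be told apart, nor, in avocado, can grafting. Leaves of several plants were pooled, which pool was sequenced is not given in the sources used here, and a table of miRNAs holds no leaf marker against which the tissue label could be checked. Values are RPM, the reads of a miRNA per 1000000 reads of 20 to 24 nt in its library. Every value above 0 is a whole number of reads once a library depth is found, and the shallowest library, juvenile mango, had 1141472 reads and the deepest, mature avocado, 7509125. The RPM of 1 read was therefore 0.876 in juvenile mango and 0.582 in mature macadamia, against 0.133 to 0.221 in the other 4 libraries. Intervals are exact 95% intervals on reads. They cover counting error alone, and PCR copies are not independent molecules, so they say nothing of the spread between trees.

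The Arabidopsis miR159a sequence was the most abundant of all 53 sequences in each of the 6 libraries. Summed over families, miR396 stood above miR159 in juvenile avocado (33294 against 28684 RPM) and juvenile mango (33405 against 31814 RPM), and miR159 was first in the other 4 libraries. Of Arabidopsis miR159a alone, avocado had 28442 RPM in its juvenile library and 17362 RPM in its mature one. Macadamia had 41550 RPM (juvenile) and 34527 RPM (mature), and mango 31534 RPM (juvenile) and 119798 RPM (mature). Mature mango was therefore far above the other 5 libraries, which lay within a range of 17362 to 41550 RPM. In the ordering of the whole miR159 family, mature mango was followed at a 2.90-fold distance by juvenile macadamia. Mature macadamia, juvenile mango, juvenile avocado and mature avocado came next, each separated from the library before it by 1.20-fold, 1.09-fold, 1.11-fold and 1.63-fold. None of the counting intervals of neighbours in this order overlapped, but a distance of 1.09-fold between libraries that lack replicates cannot be set against the spread between trees.

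**Figure D1:**
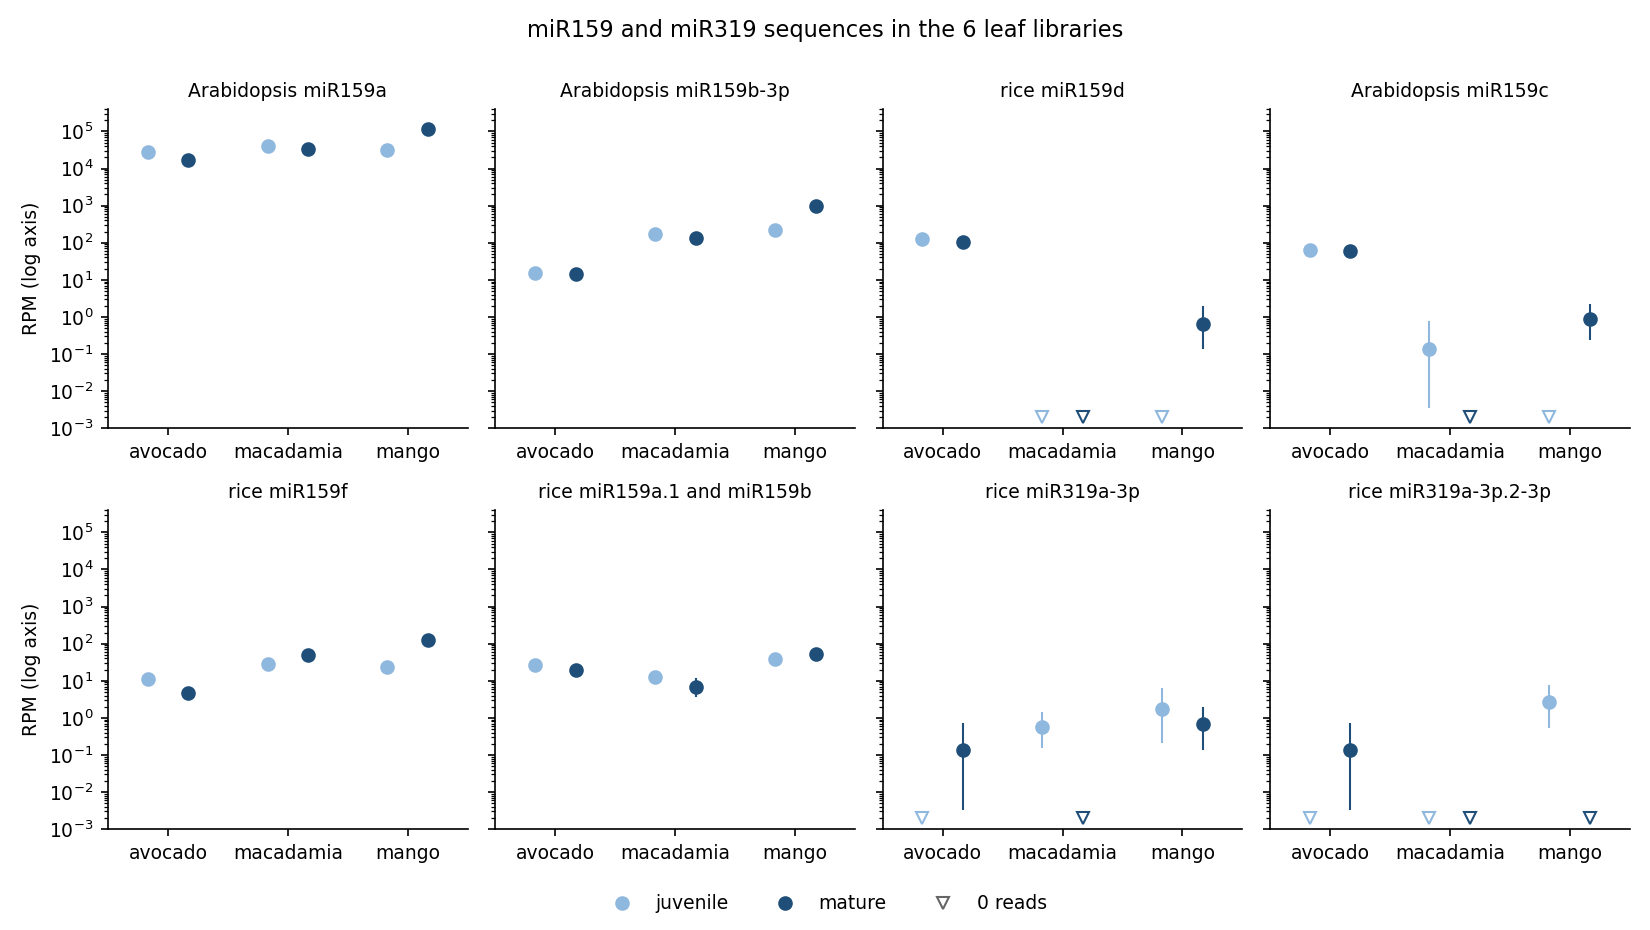
RPM (log axis) of each miR159 and miR319 sequence in juvenile (light) and mature (dark) leaves of the 3 species; bars are exact 95% counting intervals and open triangles mark libraries with 0 reads. Arabidopsis miR159a lies at 17362 RPM or above in all 6 libraries, rice miR159d and Arabidopsis miR159c reach 58.1 RPM or more in avocado and stay under 1 RPM elsewhere, and both miR319 sequences lie under 3 RPM throughout.

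The 5 other miR159 sequences were far less abundant and differed in the species in which they were counted. Mismatch settings of the counting were not given, and whether some of these reads came from miR159a was not tested. The levels of Arabidopsis miR159b-3p were, for juvenile then mature leaves, 15.0 then 14.4 RPM in avocado, 168 then 133 RPM in macadamia and 217 then 958 RPM in mango. It was thus low in both avocado libraries and highest in mature mango, where it was the seventh most abundant sequence (rank 7 of 53). Rice miR159d showed the opposite distribution, with 126 RPM (juvenile) and 105 RPM (mature) in avocado, 0 reads in both macadamia libraries and in juvenile mango, and 3 reads (0.664 RPM) in mature mango. Arabidopsis miR159c followed it, with 64.5 RPM (juvenile) and 58.1 RPM (mature) in avocado, 1 read in juvenile macadamia, 0 reads in mature macadamia and juvenile mango, and 4 reads in mature mango. These low counts occurred in libraries that held up to 541028 reads of miR159a.

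In the same order of ages, rice miR159f had 11.1 then 4.66 RPM in avocado, 28.5 then 49.5 RPM in macadamia and 23.7 then 129 RPM in mango. The sequence shared by rice miR159a.1 and miR159b had 26.1 then 19.2 RPM in avocado, 12.5 then 6.99 RPM in macadamia and 39.4 then 51.2 RPM in mango. Both had reads in all 6 libraries, the latter with as few as 12 in mature macadamia.

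Between ages, 3 of the 4 sequences with appreciable reads in mango were higher in its mature library, while the macadamia sequences differed in direction. In mature mango leaves Arabidopsis miR159a was 3.80-fold higher than in juvenile leaves (3.76 to 3.84), Arabidopsis miR159b-3p 4.41-fold higher (3.88 to 5.03) and rice miR159f 5.46-fold higher (3.71 to 8.35). The rice miR159a.1 and miR159b sequence had a mango ratio of 1.30, with an interval of 0.94 to 1.83 that includes 1. In macadamia, before any rescaling to the median family, Arabidopsis miR159a was 1.20-fold lower in mature leaves (1.19 to 1.21) and Arabidopsis miR159b-3p 1.26-fold lower (1.10 to 1.46), while rice miR159f was 1.73-fold higher (1.33 to 2.24). Once rescaled in this way, these 3 all had positive log2 ratios, at 0.26, 0.20 and 1.30. The rice miR159a.1 and miR159b sequence had a macadamia ratio of 0.56, with an interval of 0.28 to 1.03 that includes 1. Its log2 ratio stayed negative after rescaling (-0.22), and it reached 10 RPM only in juvenile macadamia (12.5 RPM, against 6.99 in mature). In avocado the RPM ratio of every miR159 sequence was below 1, but rescaling to the median family, a shift of -1.39 there, turned all 6 log2 ratios positive (0.30 to 1.34). Rice miR159f was 2.38-fold lower (1.52 to 3.76) and Arabidopsis miR159a 1.64-fold lower (1.63 to 1.65), whereas the mature over juvenile ratios of Arabidopsis miR159b-3p (0.96, 0.70 to 1.32) and miR159c (0.90, 0.78 to 1.05) had intervals that include 1. With 1 library for each species and age, these are differences between pairs of libraries, and no test between ages was made within a species.

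**Figure D2:**
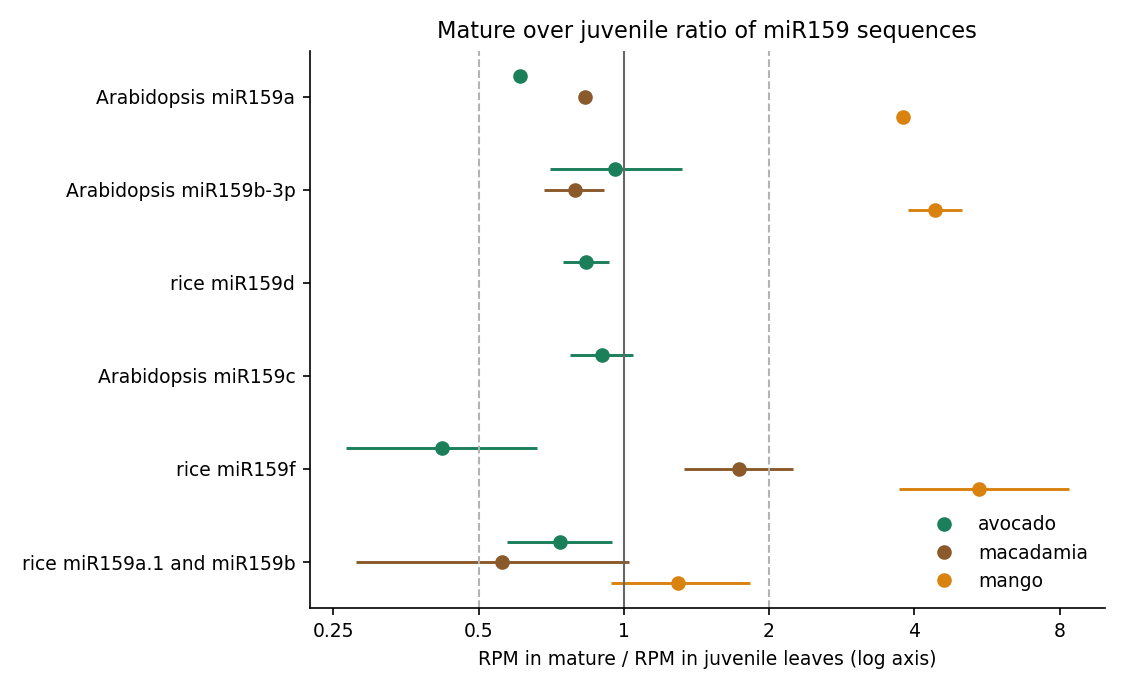
RPM in mature leaves divided by RPM in juvenile leaves (log axis) for each miR159 sequence that reached 10 RPM in a library of the species; bars are exact 95% counting intervals, the solid line marks no difference and the dashed lines 2-fold. In mango 3 points lie beyond 2-fold higher (3.80, 4.41 and 5.46), and rice miR159f in avocado (0.42) is the point beyond 2-fold lower.

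Differences of 2-fold were frequent among all miRNAs of these libraries, so the members were read against that background. Among all sequences that reached 10 RPM in a library of the species, a ratio of 2-fold or more in either direction, measured as log2(RPM + 1), was found for 64.7% in avocado, for 38.2% in macadamia and for 69.0% in mango. All 6 miR159 sequences passed this filter in avocado, where rice miR159f was past 2-fold, lower in mature leaves. There rice miR159f passed only through its juvenile library (11.1 RPM, against 4.66 in the mature one), and its log2 ratio was 0.30 after rescaling. In macadamia 4 passed and none was past 2-fold, rice miR159f coming nearest with a log2 ratio of 0.77. In mango 4 passed and 3 were at least 2-fold higher. The 2 miR319 sequences did not pass in any species. The median log2 ratio of the miR159 sequences that passed was -0.34 for avocado, -0.30 for macadamia and 2.03 for mango, beside -0.96, -0.36 and 0.45 for all sequences that passed. At the level of families, 73.3%, 44.4% and 68.8% were past 2-fold in avocado, macadamia and mango. As a family, miR159 was past 2-fold in mango alone. That call ends when RPM is replaced by the share of listed miRNA reads (log2 ratio 0.83), in which miR159 is itself counted. Against the listed reads other than miR159, it was 3.84-fold higher in mature mango (log2 ratio 1.94).

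The share of each sequence within the miR159 family does not depend on how a library is scaled. Arabidopsis miR159a made up 98.9% to 99.5% of miR159 reads in every library. The reads left for the other 5 sequences were 0.845% (0.797 to 0.896) of the family for juvenile avocado and 1.15% (1.09 to 1.21) for mature avocado. For macadamia they were 0.500% (0.476 to 0.526, juvenile) and 0.545% (0.487 to 0.607, mature), and for mango 0.881% (0.788 to 0.983, juvenile) and 0.943% (0.917 to 0.969, mature). In avocado, miR159c and miR159d together supplied 78.5% of these remaining reads in juvenile and 81.0% in mature leaves. In macadamia and mango they supplied 0.136% or less, and miR159b-3p was the main one instead. Per 1000 reads of miR159a, miR159b-3p had 6.89 reads in juvenile mango against 0.527 in juvenile avocado, a 13.1-fold difference, and 8.0 against 0.828 in mature leaves, a 9.65-fold difference.

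**Figure D3:**
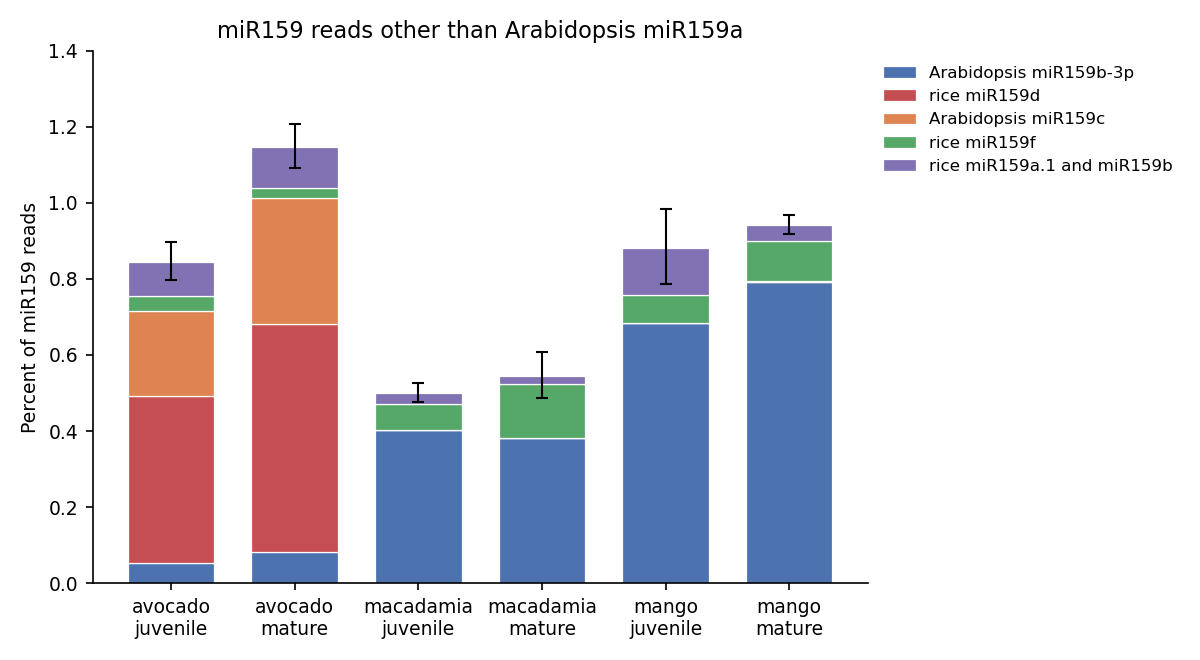
Percent of miR159 reads held by the sequences other than Arabidopsis miR159a in each library, stacked by sequence; the error bar is the exact 95% interval of their sum. Rice miR159d and Arabidopsis miR159c fill most of both avocado bars, Arabidopsis miR159b-3p most of the macadamia and mango bars, and the sums run from 0.500% to 1.15%.

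Within a species the shares still shifted with age for some sequences. Relative to miR159a, Arabidopsis miR159b-3p was 1.57-fold (1.15 to 2.16), Arabidopsis miR159c 1.48-fold (1.27 to 1.72) and rice miR159d 1.37-fold (1.23 to 1.53) more frequent in mature than in juvenile avocado leaves. Arabidopsis miR159c and rice miR159d kept nearly the same proportion to each other, with miR159c at 33.9% (30.7 to 37.1) of their sum in juvenile and 35.6% (32.9 to 38.3) in mature avocado. In macadamia rice miR159f was 2.09-fold (1.60 to 2.70) more frequent relative to miR159a in mature leaves, and the interval of miR159b-3p (0.82 to 1.10) included 1. In mango the rice miR159a.1 and miR159b sequence was at 0.34 of its juvenile frequency relative to miR159a (0.25 to 0.48), from 1.25 to 0.427 reads per 1000. Arabidopsis miR159b-3p was 1.16-fold (1.02 to 1.32) more frequent relative to miR159a in mature mango leaves. The mango miR159f ratio of 1.44 had an interval of 0.98 to 2.20. These intervals compare the libraries and not the ages as such.

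Across the 3 species taken as replicates of the age comparison, no miR159 sequence changed beyond the spread between species. A limma model with a term for species was fitted to log2(RPM + 1) for the 23 sequences that reached 10 RPM in every species, of which 13.0% were called at an adjusted p below 0.05. Of the 4 miR159 sequences tested, 0 were called by limma and 0 had an unadjusted p below 0.05. The log2 fold change of mature over juvenile leaves was 0.69 for rice miR159f (95% interval -1.10 to 2.49, adjusted p = 0.82 from limma, higher in 2 of 3 species). It was 0.58 for Arabidopsis miR159b-3p (-1.21 to 2.38, adjusted p = 0.82, higher in 1 of 3 species) and 0.32 for Arabidopsis miR159a (-1.48 to 2.11, adjusted p = 0.84, higher in 1 of 3). For the rice miR159a.1 and miR159b sequence it was -0.27 (-2.07 to 1.53, adjusted p = 0.84 from limma, higher in 1 of 3). All sequences share 1 standard error of 0.89, pooled over the fit, and the intervals leave room for changes of more than 2-fold in either direction. Without mango the fold changes of miR159a (-0.49), miR159b-3p (-0.20) and miR159f (-0.16) turn negative, with adjusted p from limma of 0.75 or more. Rice miR159d and Arabidopsis miR159c were not in this fit, since they were under 10 RPM in macadamia and mango. In the corresponding fit of 13 families, in which 15.4% were called, the family miR159 had a log2 fold change of 0.32 (adjusted p = 0.73 from limma).

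The 2 rice miR319a sequences, the only miR319 entries followed, were close to absent from all 6 libraries. Rice miR319a-3p and rice miR319a-3p.2-3p had 14 reads in all, against 1207496 reads of miR159. As the sum of these 2 sequences, miR319 was the family with the lowest peak level of the 20. There were 0 reads in juvenile avocado, 2 in mature avocado, 4 in juvenile macadamia, 0 in mature macadamia, 5 in juvenile mango and 3 in mature mango. Libraries with and without reads occurred at both ages, and 2 of the 6 held more than 3 reads, the floor set here for a count of 0. In RPM the family was at 0.266 in mature avocado, 0.554 in juvenile macadamia, and 4.38 and 0.664 in juvenile and mature mango. By that interval the 2 libraries with 0 reads allow up to 0.801 RPM in juvenile avocado and 2.15 RPM in mature macadamia.

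At this depth a difference of miR319 between ages was not detectable in avocado or macadamia. The mature over juvenile ratio has a lower bound of 0.12 in avocado and an upper bound of 6.36 in macadamia, so that neither direction can be read from 2 and 4 reads. In mango 5 reads against 3 correspond to a 6.59-fold lower RPM in mature leaves with an interval of 1.28 to 42.5. That ratio rests on rice miR319a-3p.2-3p, with 3 reads in juvenile and 0 in mature mango, while rice miR319a-3p had 2 reads (juvenile) and 3 reads (mature), a ratio of 0.38 (0.043 to 4.54). In limma without the filter on low values, over all 20 families, the estimate for miR319 was -0.66 on the log2 scale, with a 95% interval of -2.90 to 1.58 and an adjusted p of 0.81, and rests on at most 5 reads in a library.

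Relative to miR159, which is counted in the same library and so free of its scaling, miR319 was at most 0.0138% of the reads of the pair. That value, from juvenile mango, had an interval of 0.00447% to 0.0321%. In mature mango it was 5.49e-04%, in mature avocado 0.00152% and in juvenile macadamia 0.00133%. With 0 reads, juvenile avocado and mature macadamia allow up to 0.00227% and 0.00503%. All 3 Arabidopsis entries among the members are miR159, so these values describe the rice miR319a sequences and not every miR319 a tree may carry.

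Whether miR159 was higher or lower in mature leaves depended on what it was compared with, except in mango, where it was higher on each scale used here. Even in mango it would not be higher against every family, since the RPM of miR160 rose 10.0-fold there and that of miR159 3.80-fold. As a share of all listed miRNA reads, miR159 went from 24.2% (juvenile) to 31.4% (mature) for avocado, from 55.3% to 62.6% for macadamia and from 41.0% to 72.7% for mango. The share was thus higher in mature leaves of 3 of 3 species, by 1.30-fold, 1.13-fold and 1.78-fold, although the RPM was lower in mature avocado and macadamia. Listed miRNAs as a whole fell from 11.9% to 5.59% of the 20 to 24 nt reads between the avocado libraries and from 7.55% to 5.54% between those of macadamia, while in mango they went from 7.77% to 16.6%. The exact sign-flip permutation test over 3 species gives p = 0.25 (two-sided), the smallest value that 3 pairs allow, for a mean log2 difference of 0.46 ± 0.33 (SD, n = 3).

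Against miR156, which represses SPL transcripts and declines as Arabidopsis leaves its juvenile phase, miR159 stood higher in mature leaves throughout. Per read of miR156, juvenile avocado had 3.86 reads of miR159 and mature avocado 62.3. The corresponding ratios were 13.0 then 76.0 for macadamia and 79.5 then 443 for mango, so that juvenile mango was already near mature macadamia. The increase was 16.2-fold, 5.84-fold and 5.58-fold, a mean log2 difference of 3.01 ± 0.87 (SD, n = 3 species, exact sign-flip permutation p = 0.25, the smallest possible). In avocado and macadamia the RPM of miR159 itself was lower in mature leaves. Against miR157, a relative of miR156, the ratio rose by 24.6-fold, 6.48-fold and 39.4-fold in the same order. Against miR172, which targets AP2-like transcripts, it was 6.59-fold lower in mature avocado, 1.88-fold lower in macadamia and 2.06-fold higher in mango.

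**Figure D4:**
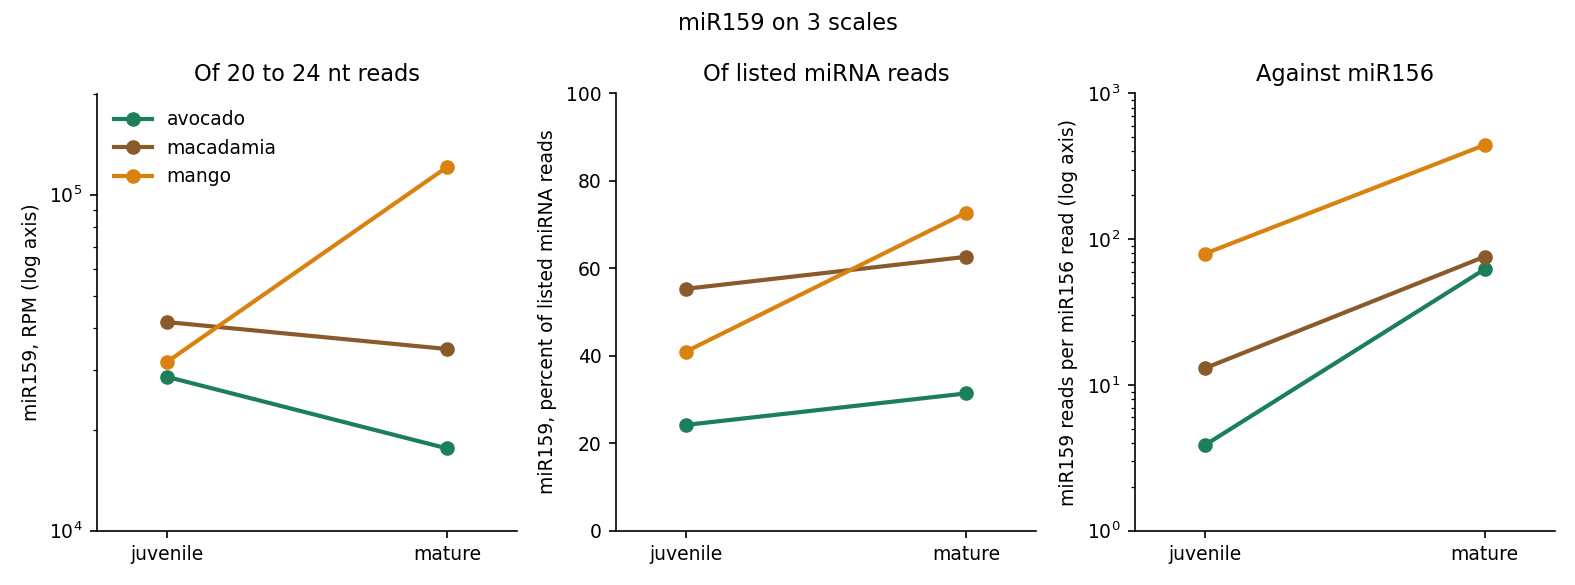
The miR159 family in juvenile and mature leaves of each species as RPM of 20 to 24 nt reads (left, log axis), as percent of listed miRNA reads (middle) and as reads per miR156 read (right, log axis); each line joins the 2 libraries of a species. RPM falls in avocado and macadamia and rises in mango, whereas the share of listed reads (31.4%, 62.6% and 72.7% in mature leaves) and the ratio to miR156 rise in all 3 species.

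Among miR156, miR157 and miR172, the families of the age pathway, limma called 2 of 3 lower and none higher in mature leaves (median log2 fold change -2.69, beside -0.91 for all 13 families). Both calls, miR157 (adjusted p = 0.0028) and miR156 (adjusted p = 0.041), are lost when any species is left out, with adjusted p from limma of 0.055 to 0.21 and 0.21 to 0.70 and 1 residual degree of freedom, while the log2 fold changes stay at -4.35 to -3.16 for miR157 and -3.76 to -1.68 for miR156 (-3.88 and -2.69 with all species). With all species kept, the miR156 call is also lost after rescaling (limma adjusted p = 0.25), without the species term (0.35), without the filter (0.20) and when scaled to listed miRNA reads (0.17), and the miR157 call is lost in the last of these (0.056). The leaf growth families were miR164 and miR396, which in Arabidopsis lie downstream of the TCP factors that miR319 represses, miR166, whose class III HD-ZIP targets pattern leaf polarity, and miR390, which triggers tasiRNA production from TAS3. Of these 4, limma called 0, with 1 (miR390) at an unadjusted p below 0.05 (median log2 fold change -1.01). In every species the mature library had more miR159 reads per read of each of the 4 than the juvenile library. Per read of miR164 it had 1.95-fold more for avocado, 1.30-fold more for macadamia and 7.74-fold more for mango. Per read of miR396 it was 1.68-fold, 1.11-fold and 6.86-fold, and per read of miR166 it was 1.61-fold, 2.19-fold and 1.20-fold. Per read of miR390 it was 2.18-fold, 6.39-fold and 14.8-fold. The rise was not particular to this list. Relative to the median family, miR159 also had positive log2 ratios in avocado (0.69), macadamia (0.27) and mango (1.98). Some families went the other way. The mature over juvenile RPM ratio was 1.05 for miR167 and 0.61 for miR159 in avocado, and 10.0 for miR160 and 3.80 for miR159 in mango. These comparisons share the miR159 reads and were not tested.

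The families whose levels followed miR159 most closely over the 6 libraries were miR398, miR396 and miR166. The measure was the mean absolute difference of centred log2(RPM + 1), which was 0.89, 0.89 and 0.98 for these families out of 18 compared. A mean difference of 0.89 is nearly 2-fold, so none tracked miR159 tightly. For miR319 the nearest families were miR396 (0.50), miR393 (0.89) and miR159 (0.91), but its profile is made of at most 5 reads in a library and is nearly flat on this scale.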

How the data were processed

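Small RNA libraries of 6 leaf samples, 1 for each species and age, were grouped by their labels. Adapters were trimmed by the authors (Trim Galore), ribosomal sequences were filtered out (BBduk), and SCRAM counted what was left on miRBase mature miRNAs from Arabidopsis and rice. Versions and mismatch settings of these tools were not given in the sources used here. Deposited values are RPM of 20 to 24 nt reads, to 3 decimals, and 0 columns were unassigned. Where entries of a family shared all 6 values they entered as 1 sequence. Each family is the sum of its sequences of the dominant arm and of entries naming no arm. Depth is the smallest number of reads that makes every value whole within rounding, so a multiple of it would fit too. Reads, exact (Clopper-Pearson) intervals and the 3-read floor follow from it, and for ratios the interval is conditional on the summed reads. A value of 2-fold was counted on log2(RPM + 1), which understates changes of low miRNAs, for items that reached 10 RPM in a library of the species.

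limma 3.58.1 (R 4.3.3) was fitted with species as a block on items past 10 RPM in every species, with Benjamini-Hochberg adjustment. It was also run on simulated items that all had the same spread. That run cannot show how limma behaves where items differ in spread, and nothing is drawn from it. miR319 did not pass, so its value comes from the fit without the filter. The prior degrees of freedom were infinite in these fits, so their p-values rest on the pooled spread, but finite in some alternatives, among them those without mango. The 3 species are not replicates in the usual sense. Other steps used Python 3.11.15, numpy 2.4.6, pandas 2.3.3 and scipy 1.17.1. Alternatives were pseudocounts of 0.1 and 5 RPM, rescaling to the median family, both arms, the most abundant sequence, no filter or 50 RPM, 1.5-fold and 4-fold, no species term and leaving out each species. Scaling to listed miRNA reads was added after seeing the data. The members and lists of families were chosen with earlier results of these data known. Named families were the members, 2 lists (7 families) and the 3 families nearest to each member by profile. Primer sequences were read from the study's supplementary material.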

Additional observations from a re-analysis of the deposited data

Results flagged for a closer look

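Opposite directions between species were seen for the miR159 family, for Arabidopsis miR159a, for Arabidopsis miR159b-3p and for rice miR159f, each with counting intervals that do not include 1 on either side. These opposite directions hold for RPM and not after rescaling to the median family, where the log2 ratios are positive in all 3 species for the family (0.69, 0.27 and 1.98 in avocado, macadamia and mango), Arabidopsis miR159a (0.68, 0.26 and 1.98), Arabidopsis miR159b-3p (1.34, 0.20 and 2.19) and rice miR159f (0.30, 1.30 and 2.45). On the log2 scale the mature over juvenile ratio of mango exceeded that of avocado by 2.63 for the miR159 family and by 2.64 for Arabidopsis miR159a. For rice miR159f it exceeded the avocado ratio by 3.49, and for Arabidopsis miR159b-3p the mango ratio exceeded that of macadamia by 2.47. Each value compares 1 pair of libraries with another, and the difference between species was not tested. Mature mango was also the library in which listed miRNAs took the largest share of the 20 to 24 nt reads. That share was 16.6%, against 5.54% to 11.9% in the other libraries, and it includes miR159 itself, at 12.1% of the reads. In juvenile mango listed miRNAs held 7.77% of the 20 to 24 nt reads and miR159 3.18%. Any further part of the larger share in the mango ratios was not tested.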

How the results depend on the processing

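The log2 ratio of the miR159 family changed sign with the scaling in avocado and macadamia. Rescaling each species to its median family (shifts of -1.39, -0.53 and -0.05) gave 0.69 in avocado, 0.27 in macadamia and 1.98 in mango, in place of -0.71, -0.27 and 1.93. Scaling to listed miRNA reads gave 0.38, 0.18 and 0.83. Against the listed reads other than miR159, the log2 ratios were 0.52, 0.44 and 1.94 in the same order. The limma fold change of the miR159 family was -0.49 without mango (adjusted p = 0.43) and positive under the other settings, with adjusted p from 0.43 to 0.83 throughout. Without mango those of Arabidopsis miR159a (-0.49), Arabidopsis miR159b-3p (-0.20) and rice miR159f (-0.16) were also negative, and that of the rice miR159a.1 and miR159b sequence was 0.39 after rescaling. No miR159 or miR319 sequence was called by limma under any setting run, and miR319 had adjusted p from 0.50 to 1.00 (0.997). Counts of families past 2-fold were 6 at 4-fold in avocado, 13 at 1.5-fold and 4 at 4-fold in macadamia, and 6 at 4-fold in mango, where the threshold itself sets the count. The fit without the species term, that is with no replicate block, gave a miR159 log2 fold change of 0.32. An edgeR fit on whole reads was planned and not run, because a check of units did not accept the RPM columns as recovered whole reads. Every distinct value above 0 was nonetheless a whole number of inferred reads at the depth found for its library. The counting intervals and floors rest on the same inferred reads. miR319 gave no value under the 10 and 50 RPM filters. Juvenile mango and mature macadamia, at 0.876 and 0.582 RPM per read, limit what can be seen of miR319 and of the minor miR159 sequences.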
